A study of Mus musculus with 21 samples.

Results

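Prostaglandin E2 receptors, phosphodiesterases and genes induced by cyclic AMP were followed in mouse CD8+ T cells, the cytotoxic lineage, after culture in 3 media. The members were chosen by gene symbol: the receptor genes *Ptger2* and *Ptger4*, the phosphodiesterase genes *Pde3b* and *Pde4b*, and the cyclic AMP induced genes *Sik1* and *Per1*. Of 8 genes listed these 6 were measured, each by 1 transcript cluster of the array, out of 19505 genes in all. *Crem* and *Pde4d* are not analysed here. T cells from spleens of wildtype mice had been activated with beads against CD3 and CD28 in every group and cultured for 48 h in 1 of 3 ways. The AML arrays had medium conditioned by WEHI 3B, 1 mouse line of acute myeloid leukaemia (AML). The DC arrays had the conditioned medium of bone marrow dendritic cells, and the fresh arrays had unconditioned medium. Conditioned media were sterile-filtered culture supernatants in the same RPMI-based medium, and CD8+ cells were taken from the cultures by magnetic separation before RNA extraction. Each group had 7 biological replicates. The labels give no strain, age or sex, and do not say whether a replicate is 1 mouse, so p-values measure the spread between these samples.

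Prostaglandin E2 is a lipid mediator that T cells sense mainly through the receptors EP2 and EP4, both coupled to the stimulatory G protein Gs. Gs activates adenylyl cyclase, and the cyclic AMP formed activates protein kinase A, which restrains signalling from the T cell receptor and phosphorylates the transcription factor CREB. Phosphodiesterases end the signal by hydrolysing cyclic AMP. CREB binds cyclic AMP response elements in promoters and induces genes that include feedback regulators of the pathway.

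Values are log2 expression after RMA, a normalization of Affymetrix arrays, and levels of different genes carry the affinity of their probes, so each gene was compared only with itself. In bulk RNA, fewer cells of a type and less RNA per cell cannot be told apart. AML replicates 4 and 5 stood apart: on the second principal component of the deviations from group means they scored -25.6 and -24.5, against -14.2 to 14.8 in the other 19 arrays. The first component split replicates 4 to 7 (-0.0395 to 16.2) from replicates 1 to 3 (-25.5 to -4.12) in all 3 media, so values within these sets are also given. The 4 T cell markers *Cd3e*, *Cd3d*, *Cd8a* and *Cd8b1* had array means of 11.34 to 11.56 in AML medium, 11.37 to 11.60 in DC medium and 11.35 to 11.56 in fresh medium, and none passed a test. One label field names reticular cells. Their 5 measured markers had array means of 4.75 to 5.06 in AML medium, 4.74 to 4.92 in DC medium and 4.66 to 5.04 in fresh medium. No measured marker of B cells (4), macrophages (6), dendritic cells (6), natural killer cells (3), neutrophils (3) or erythroid cells (1) passed.

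AML-conditioned was compared with fresh medium to ask how medium conditioned by leukaemia cells acts on T cells. What the cells released into a medium and what they used up cannot be told apart here. *Ptger2* rose, and no other member passed. *Ptger4* was higher by a similar amount without passing, *Pde3b* and *Sik1* were lower without passing, and *Pde4b* and *Per1* differed least. With limma, 1 of 6 members was called at an adjusted p under 0.05, against 2.77% of all genes (1.3% higher and 1.48% lower). Groups without overlap were found in 0 of 6 members and in 0.795% of all genes. The median log2 difference was -0.04 over the members and -0.01 over all genes. Without adjustment, limma gave a p under 0.05 for 4 of 6 members and 3100 of 19505 genes. The members were chosen with earlier results known. With 1 member called, nothing about the group as a whole follows from these shares.

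*Ptger2*, which encodes EP2, had a lowest, median and highest log2 level of 4.88, 5.55 and 5.995 in AML medium, 4.72, 5.05 and 5.31 in DC medium, and 4.66, 5.01 and 5.27 in fresh medium. In AML medium 5 of 7 arrays lay above every fresh array and the same number above every DC array, while AML replicates 6 (5.20) and 7 (4.88) lay among them. The mean was 5.50 ± 0.36 in AML medium and 4.96 ± 0.23 in fresh medium (SD, n = 7 each), a rise of 1.45-fold (log2 0.54, SE 0.13, 95% interval 0.26 to 0.82, adjusted p = 0.0293). The signal may be low. In fresh medium the 4 B cell markers averaged 4.69, from 3.33 (*Ms4a1*) to 7.00 (*Cd79b*). The 5 reticular cell markers averaged 4.88, from 2.88 (*Lepr*) to 6.34 (*Col1a1*). Levels of different genes carry the affinity of their probes, so these averages set no background level. How near *Ptger2* lies to background was not tested. Within replicates 1 to 3 the difference was 0.76, and within replicates 4 to 7 it was 0.37. Without AML replicates 4 and 5 it was 0.43 and did not pass (adjusted p = 0.190). The call also ended without any 1 of AML replicates 1 to 5 or fresh replicates 1, 2 and 4, at differences of 0.46 to 0.55 (adjusted p = 0.0501 to 0.0854).

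*Ptger4*, which encodes EP4, had a lowest, median and highest log2 level of 7.44, 7.75 and 8.54 in AML medium, 7.07, 7.34 and 7.59 in DC medium, and 7.03, 7.37 and 7.74 in fresh medium. The highest values were 8.47 and 8.54, in AML replicates 4 and 5. In AML medium 4 of 7 arrays lay above every fresh array, and the groups overlapped. The mean was 7.91 ± 0.43 in AML medium and 7.39 ± 0.26 in fresh medium, a difference of 0.52 (SE 0.15, 95% interval 0.21 to 0.83) that did not pass (adjusted p = 0.0590). Replicates 1 to 3 gave 0.55 and replicates 4 to 7 gave 0.51. It passed without AML replicate 6, AML replicate 7 or fresh replicate 7, at 0.57 to 0.60 (adjusted p = 0.0217 to 0.0432), and was 0.28 without AML replicates 4 and 5 (adjusted p = 0.378).

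**Figure D1:**
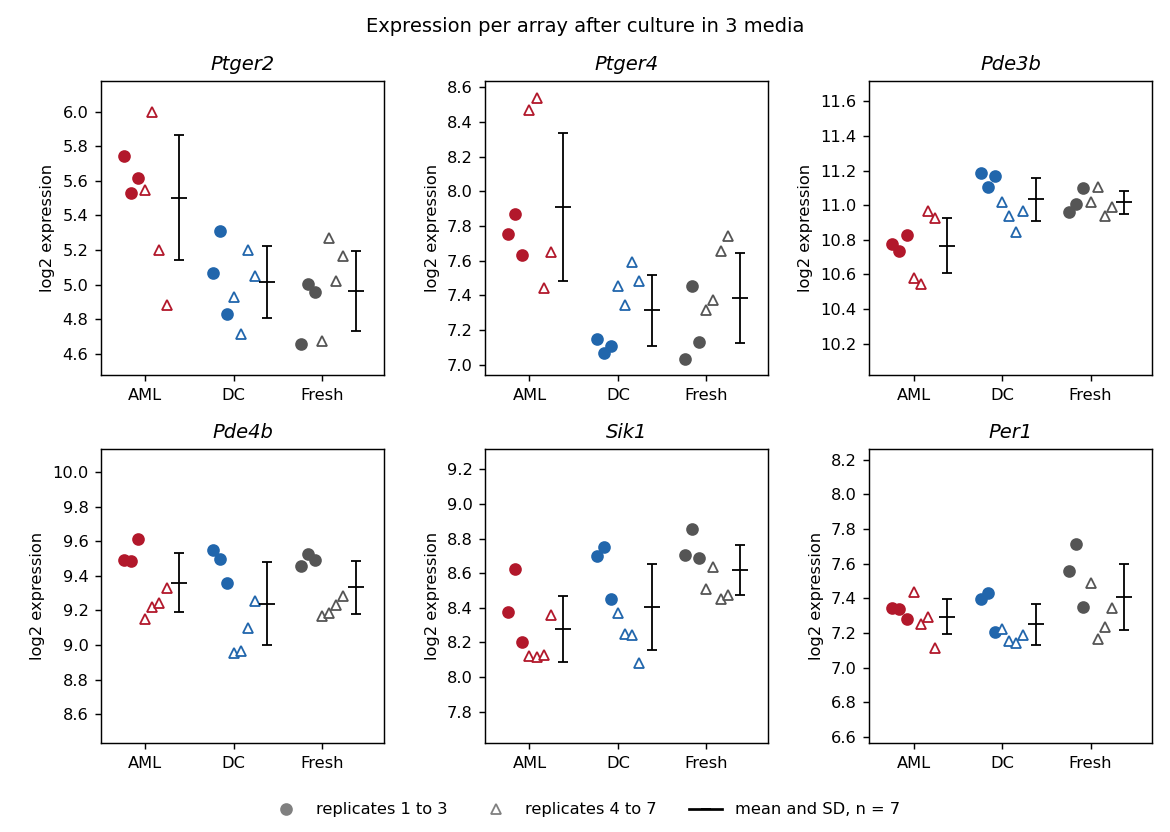
Log2 expression of the 6 measured members in each of 21 arrays after AML, DC or fresh medium, with filled circles for replicates 1 to 3, open triangles for replicates 4 to 7, and the mean and SD (n = 7) beside each group. *Ptger2* was highest in AML replicates 1 to 5, *Ptger4* reached 8.47 and 8.54 in AML replicates 4 and 5, and *Pde4b* separated by replicate set in every medium; each panel spans the same range of log2 units.

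The sequence around the transcription start was taken from RefSeq (build GRCm38.p6) as 250 bases before to 50 bases after the start. Of the 6 members 4 had 8 such windows. *Pde3b* and *Sik1* had none and were not searched. They were searched for the full cyclic AMP response element TGACGTCA, a palindrome, and for its core TGACG on either strand, which reads CGTCA on the other strand and is part of the full element. Among all 32851 windows 1.79% held the full element and 20.8% a core. No window of a member held the full element, and 3 of 8 held a core: 1 of 4 of *Pde4b*, at 34 bases before the start, and both of *Per1*. The windows of the receptor genes are shown because their RNA was higher after AML medium. The second window of *Per1* is shown because it is a cyclic AMP induced member. That of *Nr4a1* is shown because it is a further cyclic AMP induced gene that passed in AML against fresh medium. The windows shown lie at chr14:44987861-44988160 (plus strand, *Ptger2*), chr15:5244138-5244437 (minus strand, *Ptger4*), chr11:69099902-69100201 (plus strand, *Per1*) and chr15:101266596-101266895 (plus strand, *Nr4a1*). Capitals mark the core.
Ptger2: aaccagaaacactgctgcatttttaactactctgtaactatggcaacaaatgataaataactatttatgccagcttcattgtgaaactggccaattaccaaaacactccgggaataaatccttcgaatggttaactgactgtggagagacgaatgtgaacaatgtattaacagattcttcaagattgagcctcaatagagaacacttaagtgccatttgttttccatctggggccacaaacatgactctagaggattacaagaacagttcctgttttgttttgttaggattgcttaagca
Ptger4: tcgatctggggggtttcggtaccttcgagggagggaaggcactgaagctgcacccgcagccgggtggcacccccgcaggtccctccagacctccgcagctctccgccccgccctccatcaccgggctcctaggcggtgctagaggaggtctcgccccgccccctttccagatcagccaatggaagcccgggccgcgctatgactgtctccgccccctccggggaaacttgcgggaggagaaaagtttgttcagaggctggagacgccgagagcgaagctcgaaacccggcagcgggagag
Per1: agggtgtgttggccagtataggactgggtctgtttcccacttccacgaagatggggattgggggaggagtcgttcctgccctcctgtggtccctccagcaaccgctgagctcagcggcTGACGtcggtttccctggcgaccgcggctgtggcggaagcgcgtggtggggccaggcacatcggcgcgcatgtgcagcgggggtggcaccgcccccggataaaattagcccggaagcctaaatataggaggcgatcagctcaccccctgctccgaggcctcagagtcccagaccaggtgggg
Nr4a1: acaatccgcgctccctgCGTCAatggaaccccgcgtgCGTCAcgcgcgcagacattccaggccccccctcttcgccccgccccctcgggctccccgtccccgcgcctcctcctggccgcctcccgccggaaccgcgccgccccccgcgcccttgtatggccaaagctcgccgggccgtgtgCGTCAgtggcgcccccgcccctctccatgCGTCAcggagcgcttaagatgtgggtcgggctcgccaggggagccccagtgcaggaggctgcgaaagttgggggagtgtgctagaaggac
The *Ptger2* and *Ptger4* windows held no core, and their base composition differed, with 37.7% and 67.0% G and C. The *Per1* window had 1, at 132 bases before the start, and the other *Per1* window had 1 at 246 bases. The *Nr4a1* window had 4, at 233, 213, 69 and 40 bases before the start. The window of *Nr4a3*, which passed only in AML against DC medium, is not shown. It had 4 cores, at 231, 213, 205 and 147 bases before the start, and no full element. A match in letters is a description and shows no binding.

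Of the phosphodiesterase genes, *Pde3b* was lower in AML medium without passing and *Pde4b* differed little. *Pde3b* encodes a cyclic AMP hydrolase that cyclic GMP inhibits. Its lowest, median and highest log2 level was 10.55, 10.78 and 10.97 in AML medium, 10.85, 11.02 and 11.19 in DC medium, and 10.94, 11.01 and 11.10 in fresh medium. In AML medium 6 of 7 arrays lay below every fresh array, and AML replicate 6 (10.97) did not. The mean was 10.77 ± 0.16 in AML medium and 11.02 ± 0.06 in fresh medium, a difference of -0.25 (SE 0.07, 95% interval -0.40 to -0.10, adjusted p = 0.0612). Replicates 1 to 3 gave -0.24 and replicates 4 to 7 gave -0.26. It passed without AML replicate 6 or 7, at -0.28 each (adjusted p = 0.0268 and 0.0383), and was -0.17 without AML replicates 4 and 5 (adjusted p = 0.374).

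*Pde4b* encodes a phosphodiesterase specific to cyclic AMP that takes part in T cell receptor signalling. Its mean was 9.36 ± 0.17 in AML medium, 9.24 ± 0.24 in DC medium and 9.33 ± 0.15 in fresh medium, and the difference of AML from fresh medium was 0.03 (SE 0.10, 95% interval -0.18 to 0.23, adjusted p = 0.940). It varied with the replicate number. In AML medium replicates 4 to 7 had 9.15 to 9.33, against 9.49 to 9.61 in replicates 1 to 3. In DC medium the ranges were 8.96 to 9.26 and 9.36 to 9.55, and in fresh medium 9.17 to 9.28 and 9.46 to 9.53. In each of the 3 media the sets did not overlap, and their means differed by -0.30, -0.40 and -0.27. The labels do not say what sets these replicates apart, and the split was known from earlier results, so it was not tested.

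*Sik1* encodes a salt-inducible kinase, a CREB target that phosphorylates the CREB coactivators of the CRTC family and so limits the response. Its lowest, median and highest log2 level was 8.12, 8.20 and 8.63 in AML medium, 8.08, 8.37 and 8.75 in DC medium, and 8.45, 8.64 and 8.85 in fresh medium. In AML medium 6 of 7 arrays lay below every fresh array, and the groups overlapped. The mean was 8.28 ± 0.19 in AML medium and 8.62 ± 0.15 in fresh medium, a difference of -0.34 (SE 0.10, 95% interval -0.55 to -0.13) that did not pass (adjusted p = 0.0712). Within replicates 1 to 3 it was -0.35 and within replicates 4 to 7 -0.34. With a block for these 2 sets *Sik1* passed (adjusted p = 0.00955), as did *Ptger4* (adjusted p = 0.0199) and *Pde3b* (adjusted p = 0.0359) at their same differences. *Sik1* also passed without AML replicate 2, at -0.40 (adjusted p = 0.0352), and was -0.28 without AML replicates 4 and 5 (adjusted p = 0.346).

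*Per1* encodes a repressor of the circadian clock that cyclic AMP and CREB induce. Its mean was 7.29 ± 0.10 in AML medium, 7.25 ± 0.12 in DC medium and 7.41 ± 0.19 in fresh medium. The difference of AML from fresh medium was -0.11 (SE 0.08, 95% interval -0.28 to 0.05, adjusted p = 0.527), with all 3 groups overlapping. The highest array was fresh replicate 2, at 7.71.

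**Figure D2:**
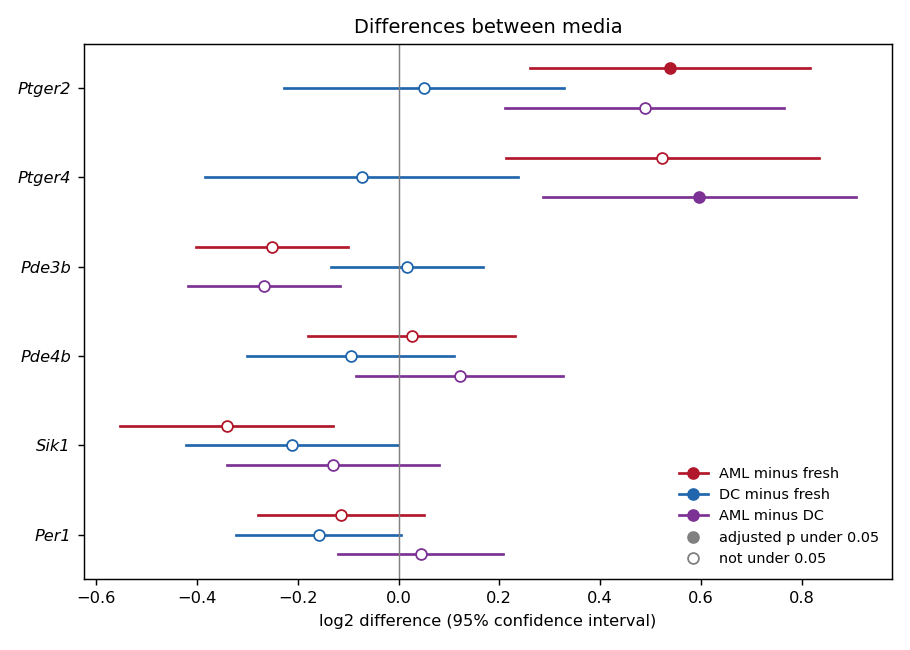
Log2 difference of each member for AML minus fresh, DC minus fresh and AML minus DC medium, as points with 95% confidence intervals from limma, filled where the adjusted p was under 0.05. *Ptger2* (AML minus fresh, 0.54) and *Ptger4* (AML minus DC, 0.60) are filled, and all intervals of *Pde4b* include 0.

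AML-conditioned against DC-conditioned medium asks whether the response is that to any conditioned medium or to that of the leukaemia line. *Ptger4* rose, and *Ptger2* was higher and *Pde3b* lower without passing, though both passed with a block for the replicate sets (*Ptger2* adjusted p = 0.0404, *Pde3b* adjusted p = 0.0288). With limma 1 of 6 members was called, against 2.39% of all genes (1.13% higher and 1.26% lower), and 0 of 6 had groups without overlap, against 0.815%. An unadjusted limma p under 0.05 was found for 3 of 6 members and 2782 genes. *Ptger4* was higher in 6 of 7 AML arrays than in every DC array, the exception being AML replicate 6 (7.44). The mean was 7.91 ± 0.43 in AML medium and 7.31 ± 0.21 in DC medium, a rise of 1.51-fold (log2 0.60, SE 0.15, 95% interval 0.29 to 0.91, adjusted p = 0.0320). Replicates 1 to 3 gave 0.65 and replicates 4 to 7 gave 0.56. Without AML replicates 4 and 5 it was 0.36 and did not pass (adjusted p = 0.242), and the call also ended without any 1 of AML replicates 2, 4 and 5 or DC replicates 1, 2, 3 and 5 (0.49 to 0.60, adjusted p = 0.0502 to 0.0907).

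*Ptger2* differed by 0.49 between AML and DC medium (SE 0.13, 95% interval 0.21 to 0.77, adjusted p = 0.0514). It passed without AML replicate 6 or 7, DC replicate 2 or fresh replicate 1, at 0.49 to 0.59 (adjusted p = 0.00705 to 0.0461), and was 0.38 without AML replicates 4 and 5 (adjusted p = 0.304). *Pde3b* differed by -0.27 (SE 0.07, 95% interval -0.42 to -0.12, adjusted p = 0.0504). It passed without AML replicate 6 or 7 or DC replicate 6, at -0.30 to -0.29 (adjusted p = 0.0185 to 0.0398), and was -0.19 without AML replicates 4 and 5 (adjusted p = 0.355). *Pde4b* (0.12, SE 0.10), *Sik1* (-0.13, SE 0.10) and *Per1* (0.04, SE 0.08) did not pass, and their intervals were -0.08 to 0.33, -0.34 to 0.08 and -0.12 to 0.21. This comparison shares the AML arrays with the one against fresh medium, so the values of both are not independent.

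DC-conditioned against fresh medium asks what medium conditioned by dendritic cells does. No member passed. With limma 0 of 6 members and 0% of all genes were called, while 1 member and 1251 genes had an unadjusted p under 0.05. Groups without overlap were found in 0 of 6 members and in 0.113% of all genes. The member with that p was *Sik1*, at -0.21 (SE 0.10, 95% interval -0.42 to -0.000757, adjusted p = 0.777), with 5 of 7 DC arrays below every fresh array. *Per1* differed by -0.16 (SE 0.08), *Pde4b* by -0.09 (SE 0.10) and *Ptger4* by -0.07 (SE 0.15). *Ptger2* differed by 0.05 (SE 0.13, 95% interval -0.23 to 0.33) and *Pde3b* by 0.02 (SE 0.07, 95% interval -0.13 to 0.17). For *Ptger2*, *Ptger4* and *Pde3b* the order of the means put AML medium at one end, with DC and fresh medium not separated by a test. The neighbour of AML medium in that order did not pass against it either. It was DC medium for *Ptger2* (adjusted p = 0.0514), and fresh medium for *Ptger4* (adjusted p = 0.0590) and *Pde3b* (adjusted p = 0.0612). For *Sik1* the order was AML, DC and fresh medium from low to high, and no neighbours in it passed. For *Pde4b* and *Per1* DC medium was lowest, and no neighbours passed.

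*Ptger4* and *Pde3b*, the member pair with the strongest correlation, ran in opposite directions across arrays. Over all 21 arrays Pearson's r was -0.90 and Spearman's rho -0.80, and r was -0.82 for deviations from the group means. Correlations of this size also occurred with genes outside the members, as given below. Within groups of 7 arrays r was -0.96 in AML, -0.89 in DC and -0.34 in fresh medium. Without AML replicates 4 and 5, which are also the 2 arrays farthest from the median of *Ptger4*, r was -0.78 over 19 arrays. *Ptger2* and *Ptger4* had an r of 0.72 over all arrays and of 0.50 for deviations from the group means. *Pde4b* and *Sik1* had 0.51 and 0.69. The arrays of a group share their medium, and arrays share the normalization and the replicate sets, so these are descriptions with no test.

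**Figure D3:**
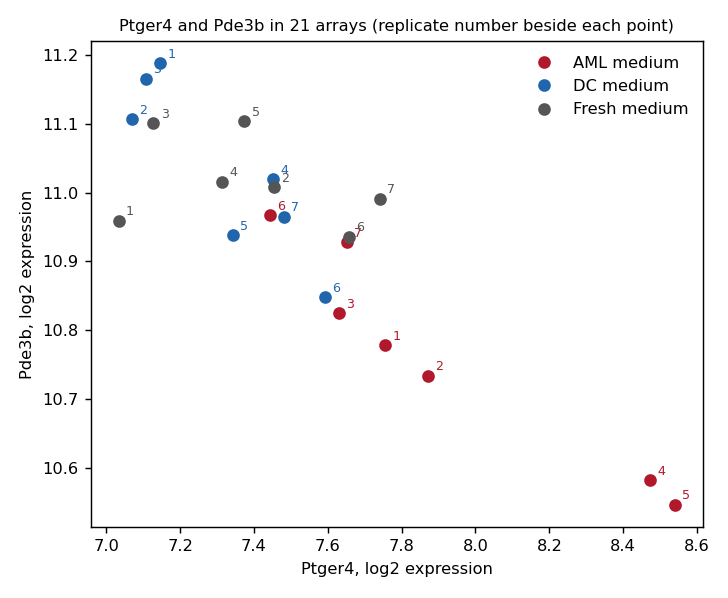
Log2 expression of *Ptger4* (horizontal axis) against *Pde3b* (vertical axis) in 21 arrays, coloured by medium and numbered by replicate. AML replicates 4 and 5 lie at the lower right, at 8.47 and 8.54 for *Ptger4* and 10.58 and 10.55 for *Pde3b*, and AML replicates 6 and 7 lie among the DC and fresh arrays.

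The genes most like each member were taken as the 3 with the highest Pearson's r over 21 arrays among 9446 genes with a mean level at or above the median gene. For *Ptger2* they were *Klf9* (0.87), *Eomes* (0.85) and *Bcl2a1d* (0.84). For *Ptger4* they were *Lta* (0.95), *Nfe2l1* (0.95) and *Crim1* (0.94), and for *Pde3b* *Crot* (0.95), *Sptbn1* (0.93) and *Wdr19* (0.93). Those of *Pde4b* were *Tcn2* (0.93), *Laptm5* (0.93) and *Sp140* (0.91). *Sik1* was most like *Smim24* (0.89), *Bcl2l11* (0.89) and *Gpr132* (0.88), and *Per1* most like *Cul9* (0.86), *Alkbh4* (0.78) and *Tbx2* (0.77). No member had another member among its 3. The search ranked by the highest r, so members that run in opposite directions, such as *Ptger4* and *Pde3b*, could not appear. A member below the median gene could not appear either.

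Other genes of the pathway were described by 8 lists with 88 measured genes of 95. *Ptgs1*, *Rapgef4* and *Areg* are among those not analysed here. After AML against fresh medium 1 rose and 1 fell, 2.27% of them, close to the 2.77% of all genes. After AML against DC medium 3 rose and none fell, 3.41% against 2.39% of all genes. In DC against fresh medium none was called. The median log2 difference of all genes was -0.01 for AML against fresh medium and 0.01 for AML against DC medium.

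Ligand supply and the other receptors showed 1 change. Among 9 genes of prostaglandin E2 synthesis, transport and breakdown, *Ptges*, which encodes a prostaglandin E synthase, fell, and 8 did not pass (list median -0.08). *Ptges* had a lowest, median and highest log2 level of 4.08, 4.38 and 4.62 in AML medium and 4.22, 4.73 and 5.31 in fresh medium. All 7 AML arrays lay below the fresh median and the groups overlapped. The signal may be low. The 4 B cell markers averaged 4.63 in AML and 4.69 in fresh medium, and the 5 reticular cell markers 4.86 and 4.88. These averages hold genes of unlike level, such as *Ms4a1* (3.33) and *Cd79b* (7.00) in fresh medium, and set no background level. How near *Ptges* lies to background was not tested. *Ptges* averaged 4.34 ± 0.18 in AML medium and 4.78 ± 0.34 in fresh medium, a log2 difference of -0.44 (adjusted p = 0.0464, SE 0.12). That call ended without any 1 of 17 arrays (AML replicates 1 to 6, DC replicates 1, 3, 4, 5 and 7, fresh replicates 1 to 3 and 5 to 7), at -0.47 to -0.36 (adjusted p = 0.0502 to 0.123). Replicates 1 to 3 gave -0.70 and replicates 4 to 7 gave -0.25. None of the 7 other prostanoid receptors passed in AML against fresh medium (median -0.08). *Ptger3*, which encodes the inhibitory receptor EP3, had the smallest adjusted p among them (-0.19, SE 0.10, adjusted p = 0.357).

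Production and sensing of cyclic AMP showed no called gene in AML against fresh medium. None of 12 genes of the Gs protein and adenylyl cyclases passed (median -0.04), and *Adcy6*, an adenylyl cyclase, differed by -0.15 (SE 0.08, adjusted p = 0.393). None of 6 measured genes of other Gs-coupled receptors and their partners passed (median 0.17). *Ramp1*, a partner of the receptor for calcitonin gene-related peptide, differed by 0.27 (SE 0.12, adjusted p = 0.279). The adenosine receptor genes *Adora2a* and *Adora2b* are among those not analysed here. None of 18 genes of protein kinase A, its inhibitors and anchors and the exchange factor EPAC passed (median -0.01). *Prkacb*, a catalytic subunit of protein kinase A, differed by -0.22 (SE 0.09, adjusted p = 0.197). None of 13 other phosphodiesterases passed (median -0.03), with *Pde2a*, whose enzyme cyclic GMP stimulates, at -0.32 (SE 0.15, adjusted p = 0.290).

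**Figure D4:**
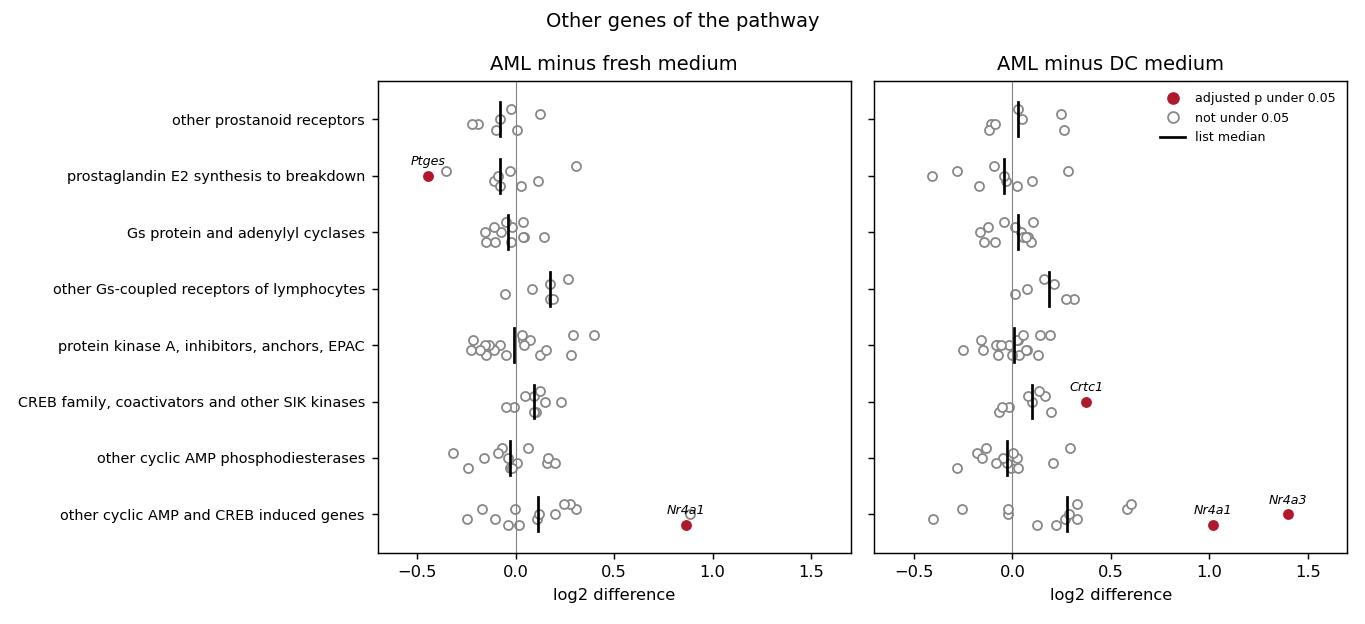
Log2 differences of the 88 measured genes of 8 further pathway lists for AML minus fresh medium (left) and AML minus DC medium (right), with list medians as bars and genes at an adjusted p under 0.05 filled and named. *Ptges* and *Nr4a1* are filled on the left, and *Crtc1*, *Nr4a1* and *Nr4a3* on the right.

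CREB, its coactivators and the other salt-inducible kinases formed a list of 9, of which none passed in AML against fresh medium (median 0.10). In AML against DC medium 1 of 9 rose (median 0.10). It was *Crtc1*, a CREB coactivator that salt-inducible kinases hold in the cytoplasm. *Crtc1* had a lowest, median and highest log2 level of 7.51, 7.87 and 8.07 in AML medium, 7.17, 7.46 and 7.66 in DC medium, and 7.50, 7.60 and 7.70 in fresh medium. In AML medium 6 of 7 arrays lay above every DC array, and AML replicate 6 (7.51) did not. *Crtc1* rose by 0.38 against DC medium (SE 0.08, adjusted p = 0.0167) and differed by 0.23 from fresh medium (SE 0.08, adjusted p = 0.146). With AML replicates 4 and 5 left out, the rise against DC medium was 0.31 and did not pass (adjusted p = 0.128). That call also ended with the 2 groups only (adjusted p = 0.0554), in replicates 1 to 3 only (adjusted p = 0.0878) and in replicates 4 to 7 only (adjusted p = 0.185). Without AML replicate 6 alone the difference of *Crtc1* from fresh medium passed, at 0.28 (adjusted p = 0.0452).

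Of 14 other genes known to be induced by cyclic AMP and CREB, 1 rose in AML against fresh medium (median 0.11) and 2 in AML against DC medium (median 0.28). Both belong to the NR4A family of nuclear receptors, which T cell receptor signals also induce. The third member of that family, *Nr4a2*, is in the same list and passed in no comparison: it differed by -0.11 from fresh medium (SE 0.11, adjusted p = 0.709) and by 0.33 from DC medium (SE 0.11, adjusted p = 0.121) after AML medium, and by -0.44 between DC and fresh medium (adjusted p = 0.640). *Nr4a1* had a lowest, median and highest log2 level of 7.19, 7.90 and 9.12 in AML medium, 6.78, 6.97 and 7.29 in DC medium, and 6.63, 7.20 and 7.38 in fresh medium. AML replicates 4 (9.12) and 5 were highest, and AML replicates 6 and 7, at 7.35 and 7.19, lay within the fresh range. *Nr4a1* rose by 0.86 against fresh medium (SE 0.22, adjusted p = 0.0372) and by 1.02 against DC medium (SE 0.22, adjusted p = 0.0156). Against fresh medium replicates 1 to 3 gave 0.47 and replicates 4 to 7 gave 1.16. With AML replicates 4 and 5 left out the differences were 0.44 from fresh medium, which did not pass (adjusted p = 0.167), and 0.59 from DC medium, which did (*Nr4a1* adjusted p = 0.0488). The call against fresh medium also ended without any 1 of AML replicates 2, 4 and 5 or fresh replicates 1 to 7, at 0.68 to 0.90 (adjusted p up to 0.101). Against DC medium the *Nr4a1* call ended with the 2 groups only (adjusted p = 0.0508) and in replicates 4 to 7 only (adjusted p = 0.104).

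*Nr4a3* had a lowest, median and highest log2 level of 8.78, 9.07 and 11.43 in AML medium, 8.04, 8.26 and 8.50 in DC medium, and 8.58, 8.66 and 9.23 in fresh medium. All 7 AML arrays lay above every DC array, which held for 0.436% of all genes, and AML replicates 4 and 5 were at 11.21 and 11.43. *Nr4a3* rose by 1.40 against DC medium (SE 0.32, adjusted p = 0.0172) and by 0.74 without AML replicates 4 and 5 (adjusted p = 0.00239). The call ended with the 2 groups only (adjusted p = 0.0585) and in replicates 4 to 7 only (adjusted p = 0.0879). Against fresh medium the difference was 0.89 and did not pass (SE 0.32, adjusted p = 0.138), and with AML replicates 4 and 5 left out it was 0.23 (*Nr4a3* adjusted p = 0.515). All 7 DC arrays lay below every fresh array, which held for 0.0769% of all genes, at a difference of -0.51 that did not pass (SE 0.32, adjusted p = 0.842). That SE includes the spread of the AML arrays (*Nr4a3* SD 1.14, against 0.17 in DC and 0.28 in fresh medium). The same difference had an adjusted p of 0.387 with the 2 groups only and 0.271 without AML replicates 4 and 5, and did not pass in either.

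Beside these results stands the helper T cell marker *Cd4*, which rose by 0.79 in AML against fresh medium (SE 0.18, adjusted p = 0.0150). *Cd4* was at 8.38 and 8.64 in AML replicates 4 and 5, where *Ptger4* was highest, and at 8.87 to 9.03 in AML replicates 1 to 3. It was lowest in AML replicates 6 (7.80) and 7 (8.32), where *Ptger2* was lowest too. With AML replicates 4 and 5 left out, the difference was 0.81 and did not pass (adjusted p = 0.0622). In AML against DC medium *Cd4* differed by 0.54 (SE 0.18, adjusted p = 0.110), and it passed with the block for the replicate sets (*Cd4* adjusted p = 0.0155). Of 3 measured helper T cell markers, *Cd4*, *Zbtb7b* and *Cd40lg*, 1 was called. Their array means were 6.39 to 6.99 in AML medium, 6.17 to 6.75 in DC medium and 6.02 to 6.56 in fresh medium. Both measured genes of the regulatory T cell list, *Ikzf2* and *Il2ra*, did not pass, with array means of 8.88 to 9.21 in AML medium, 8.58 to 8.81 in DC medium and 8.58 to 8.85 in fresh medium. Every AML array thus lay above every DC and fresh array in that mean of 2 genes, which was seen afterwards. Among single genes, groups without overlap made up 0.795% against fresh and 0.815% against DC medium. *Ikzf2* differed by 0.09 from fresh medium (adjusted p = 0.828) and by 0.13 from DC medium (adjusted p = 0.745). *Il2ra*, which T cell activation also induces, differed by 0.53 from fresh medium (SE 0.16, adjusted p = 0.0725) and by 0.57 from DC medium (SE 0.16, adjusted p = 0.0575). *Foxp3*, of the same list, is not analysed here. RMA gives no zero, so no marker is listed at 0. The part of these markers in the receptor results was not tested.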

How the data were processed

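RNA of 21 cultures, 7 per medium, was hybridised to 1-colour Affymetrix arrays, per the labels' protocols. The authors deposited 1 expression value per transcript cluster and array, and the submitters' processing notes name oligo and RMA, without versions. That the deposited values are log2 was read from their range. RMA normalizes between arrays, but the deposited values still differed slightly in their medians, and the number of arrays limits precision. Of 22203 transcript clusters 19572 had 1 gene symbol, 0 several and 2631 none. For 55 symbols with more than 1 cluster the highest mean over the arrays was kept, which left 19505 genes.

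The authors' log2 values went into limma 3.58.1 under R 4.3.3 (lmFit and eBayes, 21 arrays in 1 fit, no covariates, two-sided, Benjamini-Hochberg over all genes of a comparison, called at an adjusted p under 0.05). The code was tried on simulated data with independent errors. These held no replicate sets and no outlying arrays, so the trial says nothing about the effect of either. The groups share 1 estimate of spread per gene. Differences are given with standard errors and 95% intervals. Members, lists, the split of replicates 1 to 3 and 4 to 7, and AML replicates 4 and 5 were chosen with earlier results of these data known. Named were all members, the called genes of each list or else the one with the smallest adjusted p in AML against fresh medium, and the 3 genes most like each member. *Cd4*, *Il2ra*, *Ikzf2* and *Nr4a2* were named after their values were seen. For likeness, segments of antigen receptors, small RNAs and genes with clone names only were left out.

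The highest correlation between 2 arrays was 0.996. Alternatives were the replicate block, the 2 sets as a block and alone, only the 2 groups compared, each array left out, AML replicates 4 and 5 left out, a further quantile normalization, centring, a filter at the 25th percentile, cluster means, trend with robust estimation, and array weights.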

Additional observations from a re-analysis of the deposited data

How the results depend on the processing

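The 18 member results kept their direction and their side of the threshold in 535 of 594 values under alternatives, lost a call in 22, gained one in 29 and turned direction in 8. The 1 member called in AML against fresh medium became 3 with the replicate number as a block (replicate block), 4 with a block for the 2 replicate sets, 2 in replicates 1 to 3 only, 0 in replicates 4 to 7 only, 0 with the 2 groups only, 0 without AML replicates 4 and 5, and 2 with a further quantile normalization, with the filter and with trend and robust estimation. Leaving out 1 array gave 0 to 3. In AML against DC medium the 1 member became 3 (*Ptger4*, *Ptger2* and *Pde3b*) with the set block, the filter or trend and robust estimation, and 0 in replicates 4 to 7 only, with the 2 groups only and without AML replicates 4 and 5; leaving out 1 array gave 0 to 3. Under the replicate block *Ptger4* (adjusted p = 0.0357) and *Sik1* (adjusted p = 0.00933) passed against fresh medium, besides *Ptger2*. The labels state no pairing, so the numbers were not taken as pairs. Correlations of the deviations of same-numbered arrays ran from -0.11 to 0.21 in AML and fresh medium. They ran from 0.04 to 0.36 in DC and fresh medium and from 0.07 to 0.27 in AML and DC medium. In these comparisons 4, 2 and 4 of 7 arrays correlated best with their own number. Without replicate sets, unmatched numbers would give 1 of 7 on average. The deviations carry the split of replicates 1 to 3 and 4 to 7, which can raise that number. These counts therefore cannot show that the numbers match. Whether the numbers match was not tested. *Ptger4* in AML against DC medium did not pass with array weights (adjusted p = 0.0516), where *Ptger2* did (adjusted p = 0.0307).

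Of all genes, the 541 called in AML against fresh medium became 1012 with the replicate block, 1026 with the set block, 32 in replicates 4 to 7 only, 246 with the 2 groups only and 111 without AML replicates 4 and 5, and 218 to 776 without 1 array. The 466 in AML against DC medium became 784, 797, 43, 249 and 92, and 220 to 784 without 1 array. The 0 in DC against fresh medium became 1 with either block and without AML replicates 4 and 5, 2 with array weights, and 0 to 2 without 1 array. Centring turned 253 higher and 288 lower calls in AML against fresh medium into 284 and 189. The causes were not tested.

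The alternatives were run for the 6 members and for *Ptges*, *Crtc1*, *Nr4a1*, *Nr4a3* and *Cd4*, and among these direction turned only for small differences that did not pass. Leaving out 1 array, *Pde4b* in AML against fresh medium ran from -0.0152 to 0.0616, and in DC against fresh medium *Ptger2* from -0.000707 to 0.101, *Pde3b* from -0.00901 to 0.0477 and *Ptges* from -0.129 to 0.0523. In replicates 4 to 7 only, *Ptger2* was at -0.0582, *Pde3b* at -0.0690 and *Ptges* at 0.130 in DC against fresh medium. *Ptges* was there at 0.00671 with a further quantile normalization. *Per1* in AML against DC medium was at -0.0237 in replicates 1 to 3 only.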
